A study of Homo sapiens with 6 samples.

Results

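The genes described here encode 10 subunits of the SWI/SNF chromatin remodelers, the BAF and PBAF complexes: ARID1A, ARID1B, ARID2, SMARCA2, SMARCA4, SMARCB1, SMARCC1, SMARCC2, SMARCD1 and SMARCD2. They were chosen by symbol, and each symbol matched 1 of the 78932 gene identifiers in the deposited tables. All 10 passed the filter on low counts, which left 17677 genes to test. RNA was sequenced from Karpas-45, an established human T-lineage leukemia line that carries a KMT2A-FOXO4 fusion and is labelled as bone marrow leukemic blasts. One group of 3 libraries came from cells transduced with a lentiviral vector encoding GFP and a short hairpin RNA against the transcription factor MEF2C (named shMEF2CKD2, genotype label MEF2C KD). The other group of 3 libraries came from scramble control cells (genotype label WT). Cells given the MEF2C hairpin were sorted for GFP 120 hours after transduction, and no further treatment is labelled. The labels name a single hairpin and call the libraries of each group technical replicates, so the p-values speak of variation among technical replicates alone. The handling of the scramble cells is not given apart from that of the hairpin cells.

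SWI/SNF complexes use the energy of ATP to slide or eject nucleosomes, which opens enhancers and promoters to transcription factors. Each complex is built on SMARCC and SMARCD proteins and holds a single ATPase, SMARCA4 or SMARCA2. Canonical BAF adds ARID1A or ARID1B and PBAF adds ARID2, both together with SMARCB1 and SMARCE1, while the non-canonical complex lacks all of these. Paralogous subunits replace each other, so a cell holds many versions of the complex, and in the thymus SMARCA4-containing complexes are known to be needed for T-cell development.

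Each library held between 45560303 and 97077335 reads assigned to genes, and single members received between 4896 and 56504 reads in a library. MEF2C received 2, 0 and 0 reads in the MEF2C hairpin libraries and 2, 1 and 0 in the scramble libraries, at or under a floor of 3 reads in each, so the targeted gene cannot check the labels. Multiply aligned reads took 16.1% of all reads in MEF2C hairpin replicate 3 and between 3.56% and 6.86% in the other libraries. The T-lineage identity was checked with 8 markers, whose summed level was 3010 to 3101 library-scaled read counts (CPM) in the MEF2C hairpin libraries and 2841 to 2926 CPM in the scramble libraries. Of the 8, 6 were higher and 0 lower in hairpin libraries at an adjusted p under 0.05 in edgeR's quasi-likelihood test. Over all tested genes 13.5% were higher and 15.3% lower. Markers of other cells were low. The 4 B-lineage markers summed to 3.04 to 3.30 CPM in MEF2C hairpin and 2.17 to 2.87 CPM in scramble libraries, the 4 myeloid markers to 1.58 to 2.50 CPM and 1.69 to 2.02 CPM, and the 4 markers of HEK293T cells, in which virus was made, to 7.86 to 9.31 CPM and 8.21 to 9.08 CPM. The B-lineage markers MS4A1 and PAX5 had at most 1 read in any library, and LIN28B, a HEK293T marker, had 0 reads in all. Others in these lists had reads. The B-lineage marker CD79A averaged 3.1 CPM in hairpin and 2.5 CPM in scramble libraries, and the myeloid marker CD14 averaged 1.3 and 1.2 CPM. The HEK293T markers PRAME and CRABP2 averaged 6.5 and 2.0 CPM in hairpin and 5.7 and 2.9 CPM in scramble libraries. CRABP2 was lower in hairpin libraries (log2 fold change -0.51, edgeR adjusted p = 0.0153), and CD79A, CD14 and PRAME did not pass the test. The part of these marker changes in the results that follow was not tested.

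The 10 genes differed little between the MEF2C hairpin and scramble libraries, by at most -11.7%. SMARCD1, SMARCC1 and ARID1B fell by the most, by log2 fold changes of -0.18, -0.14 and -0.15. SMARCA4 and SMARCB1 fell by less, SMARCA2 and SMARCC2 rose slightly, and ARID1A, ARID2 and SMARCD2 did not pass the test. Of the 10 genes, 5 were lower and 2 higher in the MEF2C hairpin libraries at an adjusted p under 0.05 in edgeR's quasi-likelihood test. Over all 17677 tested genes 28.8% were called, 15.3% lower and 13.5% higher. Among the 2038 genes whose mean level lay in the range of the members, 112 to 590 CPM, 56.7% were called, 45.2% lower and 11.4% higher. The count of 7 in 10 is read against that second share, and nothing particular to the 10 genes is drawn from it. The median log2 fold change was -0.05 over the 10 genes, -0.05 over the 2038 genes of like level and 0.00 over all tested genes. The 2 groups of libraries did not overlap for 7 of the 10, against 39.9% of all tested genes and 63.9% of those of like level. With an offset for GC content and length, fitted on the 15903 tested genes with both values, 68.5% of all calls were lower, against 53.2% in the reported fit and 54.2% on those same genes without the offset. Of the 10 genes 7 were then lower and 1 higher. With the offset the median log2 fold change over the 15903 genes was -0.0367, against 4.38e-05 without it. Values under the offset are given without correction for that shift. In bulk RNA, fewer cells of a kind and less RNA per cell cannot be told apart.

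**Figure D1:**
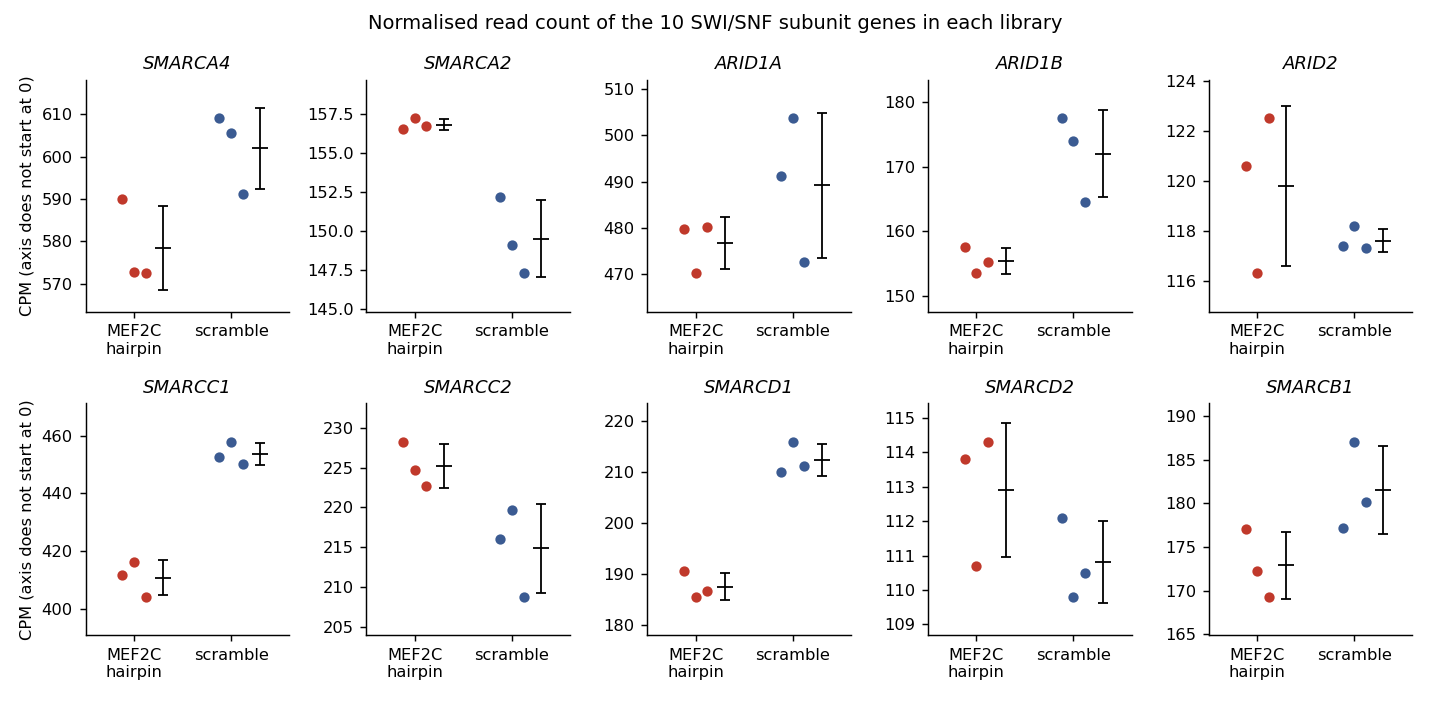
CPM of each of the 10 SWI/SNF subunit genes in the 3 MEF2C hairpin libraries (red, left in each panel) and the 3 scramble libraries (blue, right); black marks are the mean and SD, and the vertical axes do not start at 0. The groups do not overlap for SMARCA4, SMARCA2, ARID1B, SMARCC1, SMARCC2, SMARCD1 and SMARCB1, and they overlap for ARID1A, ARID2 and SMARCD2.

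The ATPases SMARCA4 and SMARCA2, the motors of the complex, changed in opposite directions. SMARCA4 (ENSG00000127616.22, chromosome 19, 10960825 to 11079426 on the plus strand of GRCh38) measured 589.9, 572.7 and 572.5 CPM in MEF2C hairpin replicates 1 to 3, against 609.0, 605.6 and 591.2 CPM in scramble replicates 1 to 3. MEF2C hairpin replicate 1 and scramble replicate 3 lay close to each other, and the groups did not overlap. The log2 fold change was -0.06 (SE 0.0201; adjusted p = 0.0270 in edgeR). SMARCA2 (ENSG00000080503.25, chromosome 9, 1980290 to 2193624, plus strand) measured 156.5, 157.2 and 156.7 CPM in MEF2C hairpin libraries and 152.2, 149.1 and 147.3 CPM in scramble libraries. Its hairpin libraries lay close together above all 3 scramble libraries, with a log2 fold change of 0.07 (SE 0.0242; adjusted p = 0.0300 in edgeR). SMARCA2 lost its call in 7 of 14 alternatives, among them without MEF2C hairpin replicate 1, 2 or 3 or scramble replicate 2 or 3 (edgeR adjusted p = 0.0686, 0.105, 0.0639, 0.0756 and 0.154). SMARCA4 also lost its call in 7 of 14, among them without MEF2C hairpin replicate 2 or 3 or scramble replicate 1 or 2 (edgeR adjusted p = 0.131, 0.101, 0.107 and 0.115), while the GC and length offset took SMARCA4 to -0.16 (edgeR adjusted p = 6.98e-08).

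The ARID proteins bind DNA and give each complex its identity, and only ARID1B among the 3 passed the test. ARID1B (ENSG00000049618.25, chromosome 6, 156776020 to 157210779, plus strand) measured 157.6, 153.5 and 155.2 CPM in the MEF2C hairpin libraries and 177.5, 174.0 and 164.5 CPM in the scramble libraries. All 3 hairpin libraries lay below all 3 scramble libraries. Its log2 fold change was -0.15 (SE 0.0261; adjusted p = 2.91e-05 in edgeR), and it stayed lower with an adjusted p of at most 0.00107 in all 14 alternatives. ARID1A (ENSG00000117713.21, chromosome 1, 26693236 to 26782110, plus strand), its paralogue in canonical BAF, measured 479.8, 470.2 and 480.2 CPM in MEF2C hairpin and 491.3, 503.7 and 472.6 CPM in scramble libraries. Scramble replicate 3 lay among the hairpin libraries, and the log2 fold change was -0.04 (95% interval -0.08 to 0.01, edgeR adjusted p = 0.217). ARID1A passed the threshold without scramble replicate 3 (-0.06, edgeR adjusted p = 0.0374) and with the GC and length offset (-0.11, edgeR adjusted p = 0.000148). ARID2 (ENSG00000189079.18, chromosome 12, 45729665 to 45908040, plus strand), the ARID subunit of PBAF, measured 120.6, 116.3 and 122.5 CPM in MEF2C hairpin and 117.4, 118.2 and 117.3 CPM in scramble libraries. The hairpin libraries lay on both sides of the scramble libraries, with a log2 fold change of 0.03 (95% interval -0.03 to 0.08, edgeR adjusted p = 0.546).

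SMARCC1 and SMARCC2 form the scaffold on which the core assembles, and these paralogues also went opposite ways. SMARCC1 (ENSG00000173473.11, chromosome 3, 47585272 to 47782106, minus strand) measured 411.9, 416.2 and 404.2 CPM in the MEF2C hairpin libraries and 452.7, 457.8 and 450.3 CPM in the scramble libraries. The gap between the highest hairpin and the lowest scramble library was wider than the range within either group. The log2 fold change was -0.14 (SE 0.0203; adjusted p = 6.20e-07 in edgeR), and the call held in all 14 alternatives. SMARCC2 (ENSG00000139613.12, chromosome 12, 56162983 to 56189567, minus strand) measured 228.2, 224.7 and 222.7 CPM in MEF2C hairpin and 216.1, 219.7 and 208.8 CPM in scramble libraries. Every hairpin library lay above every scramble library, by a log2 fold change of 0.07 (SE 0.0233; adjusted p = 0.0248 in edgeR). The call of SMARCC2 did not hold in 4 of 14 alternatives: without MEF2C hairpin replicate 1 or 2 (edgeR adjusted p = 0.117 and 0.0745), without scramble replicate 3 (0.05, edgeR adjusted p = 0.215), and with the GC and length offset (0.02, edgeR adjusted p = 0.669).

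SMARCD1, among the core subunits that transcription factors contact, had the largest fall of the 10 genes. SMARCD1 (ENSG00000066117.15, chromosome 12, 50084972 to 50100712, plus strand) measured 190.6, 185.6 and 186.7 CPM in the MEF2C hairpin libraries and 210.1, 215.9 and 211.2 CPM in the scramble libraries. The groups stood well apart, and the level changed by -11.7% (log2 fold change -0.18, SE 0.0231; adjusted p = 9.15e-08 in edgeR). Its call held in all 14 alternatives, between log2 fold changes of -0.24 and -0.17. SMARCD2 (ENSG00000108604.18, chromosome 17, 63832081 to 63843065, minus strand), a paralogue known for its role in granulocyte differentiation, measured 113.8, 110.7 and 114.3 CPM in MEF2C hairpin and 112.1, 109.8 and 110.5 CPM in scramble libraries. The groups overlapped, with a log2 fold change of 0.03 (95% interval -0.03 to 0.08, edgeR adjusted p = 0.523), and with the GC and length offset the sign turned to -0.08 (edgeR adjusted p = 0.0236). SMARCB1 (ENSG00000099956.20, chromosome 22, 23786931 to 23838008, plus strand), a core subunit with no paralogue that contacts the nucleosome and is lost in rhabdoid tumors, measured 177.0, 172.3 and 169.3 CPM in MEF2C hairpin and 177.2, 187.0 and 180.2 CPM in scramble libraries. MEF2C hairpin replicate 1 and scramble replicate 1 nearly met, and the log2 fold change was -0.07 (SE 0.0250; adjusted p = 0.0335 in edgeR). SMARCB1 lost its call in 7 of 14 alternatives, among them without MEF2C hairpin replicate 2 or 3 (edgeR adjusted p = 0.106 and 0.151) and without scramble replicate 2 (-0.05, edgeR adjusted p = 0.239), and the GC and length offset took it to -0.16 (edgeR adjusted p = 2.23e-06). In GENCODE 29, 17.7% of the exonic sequence of SMARCB1 is also annotated as exon of another gene, against 6.01% or less for the other 9.

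**Figure D2:**
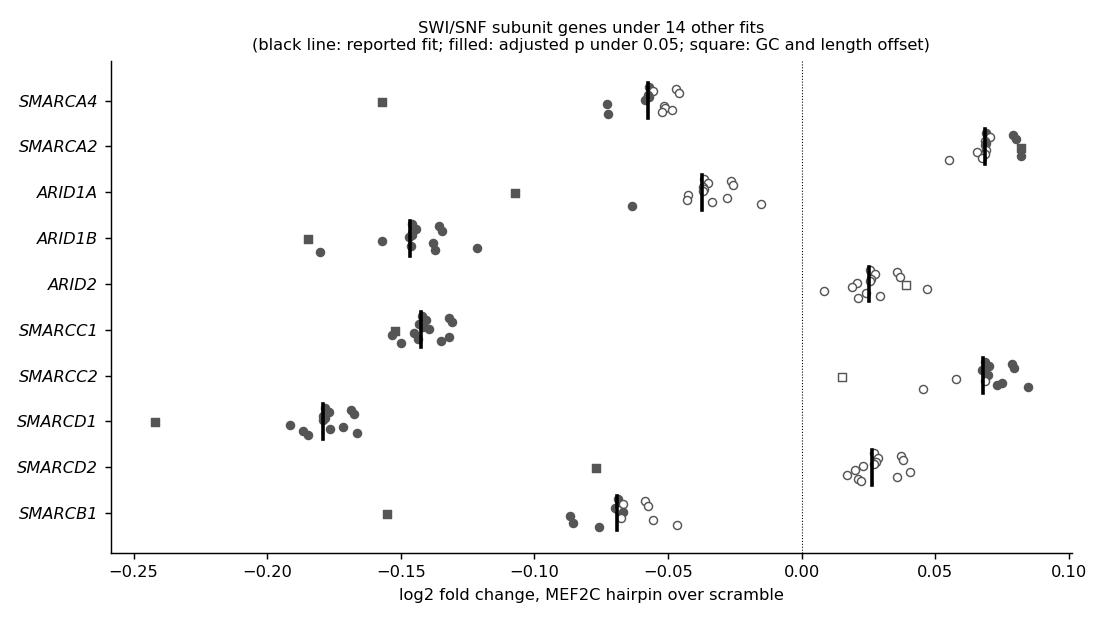
Log2 fold change, MEF2C hairpin over scramble, of each of the 10 genes in the reported edgeR fit (black line) and in 14 alternative fits (points; filled where the adjusted p was under 0.05, a square for the GC and length offset). SMARCD1, SMARCC1 and ARID1B stay lower and filled throughout, whereas SMARCA2, SMARCA4, SMARCB1 and SMARCC2 lose their call in 4 to 7 of the 14.

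Since paralogues replace each other in the complex, their ratio within a library was compared, a measure that no scaling between libraries can change. The log2 ratio of SMARCC2 to SMARCC1 reads was -0.85, -0.89 and -0.86 in the MEF2C hairpin libraries and -1.07, -1.06 and -1.11 in the scramble libraries, a difference of 0.21 (SD 0.0195 and 0.0269, n = 3 each; exact two-sided permutation p = 0.1). The ratio of SMARCD2 to SMARCD1 was -0.74, -0.74 and -0.71 in the hairpin libraries and -0.91, -0.98 and -0.93 in the scramble libraries, a difference of 0.21 (SD 0.0217 and 0.0353, n = 3 each; exact p = 0.1). In both pairs the paralogue with fewer reads per kilobase gained on the other in every hairpin library. The ratio of SMARCA2 to SMARCA4 was -1.91, -1.86 and -1.87 in the hairpin libraries and -2.00, -2.02 and -2.00 in the scramble libraries, a difference of 0.13 (SD 0.0272 and 0.0113, n = 3 each; exact p = 0.1). In the ARID pair the less abundant paralogue lost ground instead: the ratio of ARID1A to ARID1B was 1.61, 1.61 and 1.63 in the hairpin libraries and 1.47, 1.53 and 1.52 in the scramble libraries, a difference of 0.11 (SD 0.0120 and 0.0347, n = 3 each; exact p = 0.1). The groups did not overlap in any of the 4 pairs, and 0.1 is the smallest p that 3 libraries against 3 allow, also after adjustment over the 4 pairs. For single genes the groups did not overlap in 39.9% of all tested genes and 63.9% of those of like level. The share over other gene pairs was not computed, so nothing particular to these 4 pairs is drawn from the count. Each difference was larger than the SD of either group, and the exact test cannot go under 0.1 whatever its size. Under the GC and length offset the 4 differences kept their sign, at 0.17, 0.17, 0.24 and 0.08 in the order given here.

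**Figure D3:**
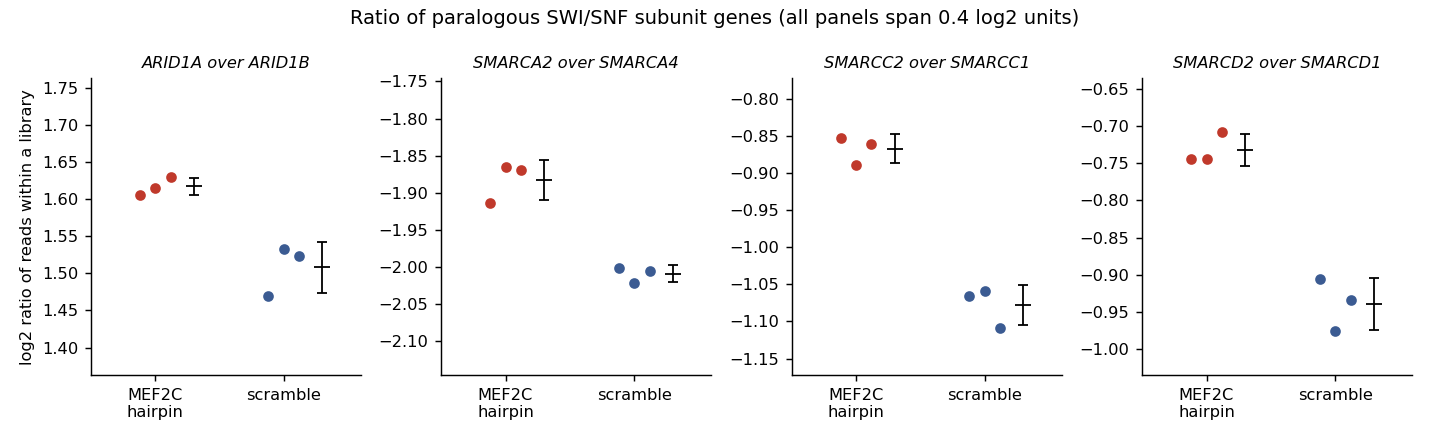
Log2 ratio of the reads of 2 paralogous subunit genes within each library, for 3 MEF2C hairpin libraries (red, left) and 3 scramble libraries (blue, right), with the mean and SD in black; all panels span 0.4 log2 units. In each pair the 3 hairpin libraries lie above the 3 scramble libraries, by 0.11 for ARID1A over ARID1B to 0.21 for SMARCC2 over SMARCC1 and SMARCD2 over SMARCD1.

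All 10 genes were abundant, between the 87.4th and the 98.9th percentile of mean CPM among tested genes. Per kilobase of exon (all annotated exons of a gene joined), SMARCC1 had the highest level, 53.7 ± 0.794 CPM per kilobase in MEF2C hairpin and 59.3 ± 0.4999 in scramble libraries (SD, n = 3 each). SMARCD1 followed in scramble libraries, at 36.5 ± 0.517 in MEF2C hairpin and 41.4 ± 0.606 in scramble libraries, and SMARCA4 came next, at 36.7 ± 0.632 and 38.2 ± 0.600 CPM per kilobase (SD, n = 3 each). These 2 did not overlap in scramble libraries and did overlap in hairpin libraries. ARID1A and SMARCD2 overlapped in both groups, at 29.9 ± 0.356 and 30.3 ± 0.520 in hairpin libraries and 30.7 ± 0.983 and 29.7 ± 0.320 CPM per kilobase in scramble libraries (SD, n = 3 each). SMARCC2, SMARCB1, ARID2 and SMARCA2 came after them, and ARID1B was lowest, at 3.48 ± 0.0457 in hairpin and 3.85 ± 0.151 CPM per kilobase in scramble libraries (SD, n = 3 each). The order depends on the length used. Here the longest coding transcript means the transcript with the longest coding sequence. With the length of the longest coding transcript, a choice made after the exon lengths were seen, SMARCA4 led at 105 ± 1.81 in hairpin and 109 ± 1.72 in scramble libraries and SMARCB1 came second at 101 ± 2.25 and 106 ± 2.92 CPM per kilobase (SD, n = 3 each), with the scramble libraries of these 2 genes overlapping. ARID2 was then lowest, at 13.9 ± 0.371 in hairpin and 13.6 ± 0.0547 CPM per kilobase in scramble libraries (SD, n = 3 each). On both lengths SMARCA4 exceeded SMARCA2, SMARCC1 exceeded SMARCC2 and ARID1A exceeded ARID1B in every library; SMARCD1 exceeded SMARCD2 likewise.

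**Figure D4:**
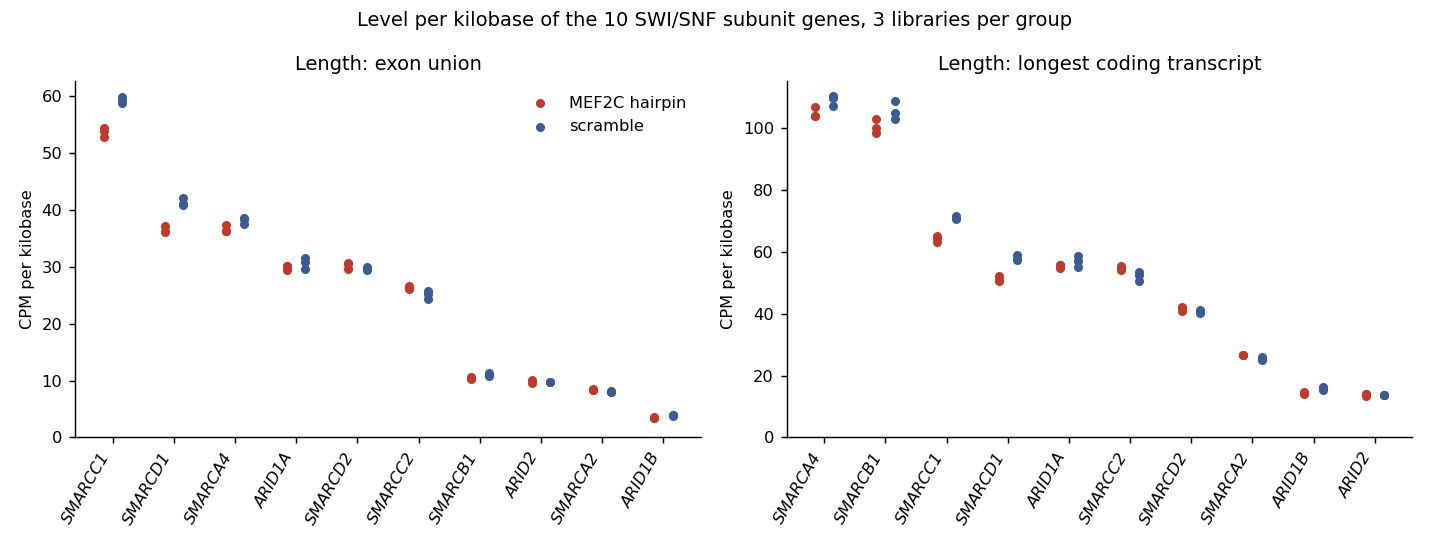
CPM per kilobase of the 10 genes in 3 MEF2C hairpin libraries (red) and 3 scramble libraries (blue), with the length of all joined exons (left) and that of the longest coding transcript (right), each ordered by the scramble mean. SMARCC1 is highest on the first scale and SMARCA4 on the second, and ARID1B or ARID2 is lowest.

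The start-site regions of the members were read from RefSeq windows on GRCh38.p14 that run from 250 bases before to 50 after a start. ARID2, SMARCC1 and SMARCC2 had no entry, and the other 7 genes had 14 windows. The first pair shown belongs to SMARCD1 and ARID1B, which fell in all fits, and the second to SMARCA2, the riser with an entry, and SMARCD2, the paralogue of SMARCD1 that did not pass the test. The starts shown were picked after the windows had been seen. Capitals mark the matches, on either strand, to the 7 motifs searched. SMARCD1 lies at chr12:50085092-50085391, ARID1B (its second start) at chr6:156777128-156777427, SMARCA2 (first start) at chr9:2015097-2015396 and SMARCD2 (first start) at chr17:63842636-63842935; the first 3 are on the plus strand and SMARCD2 on the minus strand.
SMARCD1: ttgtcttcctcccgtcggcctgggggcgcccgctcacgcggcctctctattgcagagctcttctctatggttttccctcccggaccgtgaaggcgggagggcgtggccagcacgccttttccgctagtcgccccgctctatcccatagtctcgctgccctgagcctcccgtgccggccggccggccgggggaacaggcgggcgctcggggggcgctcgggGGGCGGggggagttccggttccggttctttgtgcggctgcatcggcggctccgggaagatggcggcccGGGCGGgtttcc
ARID1B: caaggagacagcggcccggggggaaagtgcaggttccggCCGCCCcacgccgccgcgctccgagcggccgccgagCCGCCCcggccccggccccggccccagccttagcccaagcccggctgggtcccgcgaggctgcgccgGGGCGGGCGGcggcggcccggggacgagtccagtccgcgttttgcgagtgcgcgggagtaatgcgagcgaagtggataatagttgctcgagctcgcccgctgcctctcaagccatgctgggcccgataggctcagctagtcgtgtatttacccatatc
SMARCA2: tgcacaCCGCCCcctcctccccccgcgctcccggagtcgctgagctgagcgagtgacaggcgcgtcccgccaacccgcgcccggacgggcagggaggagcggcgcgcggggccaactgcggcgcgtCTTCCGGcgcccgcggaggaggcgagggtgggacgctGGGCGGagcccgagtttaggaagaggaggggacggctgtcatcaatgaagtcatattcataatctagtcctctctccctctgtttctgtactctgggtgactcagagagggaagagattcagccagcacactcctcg
SMARCD2: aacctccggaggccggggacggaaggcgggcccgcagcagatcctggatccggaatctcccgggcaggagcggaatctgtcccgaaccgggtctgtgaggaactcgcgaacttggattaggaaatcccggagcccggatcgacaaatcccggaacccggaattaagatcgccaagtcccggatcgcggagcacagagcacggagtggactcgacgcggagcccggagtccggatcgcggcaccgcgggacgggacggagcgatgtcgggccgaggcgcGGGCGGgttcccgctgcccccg
The GC box GGGCGG occurred in at least 1 window of each of the 7 genes and in 8 of the 14 windows, against 45% of all 35116 windows in the table. The first and second windows of SMARCD2 overlap and share a match. The share of 45% is per window, so it does not compare with the count per gene, as several genes have more than 1 window. The 4 windows shown were 71.3%, 72.0%, 66.7% and 68.3% G or C in that order. Over the 14 windows the share ran from 37.7% to 82.0%, with 6 below 58.7%, the median of all windows, among them the first start of ARID1B at 37.7%. The MEF2 consensus matched 0 of the 14 windows and 2.99% of all windows. The palindromic NRF1 motif (1.24% of all windows), the E-box CACGTG (7.26%) and the cyclic AMP element TGACGTCA (1.85%) matched none of the 14 either. The ETS motif CCGGAAG (10.3% of all windows) matched the first window of SMARCA2, and CCAAT (34.6%) matched windows of ARID1B and SMARCB1. Overlapping matches of the GC box were counted separately and the motifs did not overlap one another in the windows shown. These letters describe the windows and say nothing of binding.

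The 3' UTRs of the 10 genes, taken from each gene's transcript with the longest coding sequence in GENCODE 29, were searched for TTGAGAA and TGAGAAA. This pair of 7-mers was picked from earlier work on these data, which had looked at lower genes. Its frequency among lower genes is not reported here. As the pair came from these same libraries, its matches cannot serve as support for a link to the changes. SMARCC1 held 2 matches in 2937 bases, ARID1B 1 in 2888 bases and ARID2 4 in 2962 bases, and the other 7 held 0 in shorter 3' UTRs of 325 to 1712 bases. At least 1 match was present in 27.6% of the 11885 tested genes with a 3' UTR. SMARCC1 and ARID1B fell, ARID2 with the most matches did not pass the test, and SMARCD1, the gene that fell most, had none. The part of these letters in the changes was not tested.

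The remaining subunit genes were taken from a list of 21, of which 19 passed the filter on counts. Of these 19, 10 were lower and 2 higher in the MEF2C hairpin libraries. That is a share of 63.2% called beside 28.8% of all tested genes and 56.7% of those in the members' range of level. The median log2 fold change was -0.06, beside -0.05 for the tested genes in the members' range of level. Not all of the 19 lay in that range of 112 to 590 CPM. In hairpin libraries DPF1 averaged 2.11 CPM and ACTB 7519 CPM, so the values for that range are not matched to the level of each gene. Of the 21, ACTL6B, the neuronal actin-like subunit, and BCL11A, a partner in B-lineage cells, had too few reads to test. BCL11B, the T-lineage partner of the complex, measured 459 ± 13.3 CPM in MEF2C hairpin and 444 ± 2.21 CPM in scramble libraries (SD, n = 3 each; log2 fold change 0.05, edgeR adjusted p = 0.0987). It passed in 3 of 14 alternatives, 1 of them without MEF2C hairpin replicate 2 (0.07, edgeR adjusted p = 0.0456).

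The 3 subunits that mark PBAF beside ARID2 were all lower, as were 15.3% of all tested genes and 45.2% of those in the members' range of level. ARID2 itself did not pass the test, and nothing particular to PBAF is drawn from these 3 genes. BRD7, a bromodomain subunit, measured 204.2, 213.8 and 205.9 CPM in the MEF2C hairpin libraries and 243.6, 240.6 and 231.5 CPM in the scramble libraries, a log2 fold change of -0.20 (SE 0.0241; adjusted p = 2.95e-08 in edgeR). PHF10, a PHD-finger subunit, measured 149, 147 and 153 CPM in hairpin and 170, 176 and 167 CPM in scramble libraries, a log2 fold change of -0.19 (SE 0.0252; adjusted p = 1.92e-07 in edgeR). In both genes the groups stood apart by more than their own ranges. PBRM1, the bromodomain subunit also called polybromo, measured 352.3, 355.7 and 361.0 CPM in hairpin and 374.4, 364.5 and 373.5 CPM in scramble libraries, with a log2 fold change of -0.06 (SE 0.0209; adjusted p = 0.0334 in edgeR). The calls of BRD7 and PHF10 held in all 14 alternatives, and that of PBRM1 in 5. Without MEF2C hairpin replicate 1 or 2 or scramble replicate 1 or 3 the edgeR adjusted p of PBRM1 was 0.133, 0.101, 0.109 and 0.0951. For BRD7, 42.4% of the exonic sequence is also annotated as exon of another gene, so its count is uncertain.

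In canonical BAF 2 of 3 further genes were lower, and in non-canonical BAF 1 of 3 was lower and 1 higher. That is 66.7% called in each, beside 28.8% of all tested genes and 56.7% of those in the members' range of level. DPF1, DPF3, BRD9, BICRA and BICRAL lay below that range of 112 to 590 CPM, so the last share is not matched to their level. DPF3 and DPF1, PHD-finger subunits known from muscle and neurons, were lower: DPF3 measured 62.5, 63.1 and 59.7 CPM in MEF2C hairpin and 72.7, 68.8 and 74.8 CPM in scramble libraries (log2 fold change -0.22, SE 0.0351; adjusted p = 3.93e-06 in edgeR). DPF1 was low, at 2.11 ± 0.0912 CPM in hairpin and 3.14 ± 0.367 CPM in scramble libraries (SD, n = 3 each; log2 fold change -0.57, SE 0.153; adjusted p = 0.00353 in edgeR). DPF2, the widely expressed paralogue, had a log2 fold change of -0.05 (95% interval -0.10 to 0.01, edgeR adjusted p = 0.235) and passed with the GC and length offset (-0.08, edgeR adjusted p = 0.0163). BRD9, the bromodomain subunit of the non-canonical complex, measured 69.4, 72.4 and 71.3 CPM in hairpin and 80.4, 80.7 and 80.2 CPM in scramble libraries (log2 fold change -0.18, SE 0.0311; adjusted p = 2.15e-05 in edgeR). BICRAL, a scaffold of the same complex, was higher, at 33.7, 35.1 and 36.5 CPM in hairpin and 32.0, 30.5 and 30.8 CPM in scramble libraries (log2 fold change 0.17, SE 0.0455; adjusted p = 0.00319 in edgeR). Its paralogue BICRA had a log2 fold change of 0.08 (95% interval -0.02 to 0.19, edgeR adjusted p = 0.225).

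In the ATPase module, 3 of 7 tested genes fell and 1 rose. That is a share of 57.1% called beside 28.8% of all tested genes and 56.7% of those in the members' range of level. ACTB lay above that range of 112 to 590 CPM, and BCL7B and BCL7C lay below it. SS18, the subunit fused in synovial sarcoma, measured 143, 143 and 140 CPM in MEF2C hairpin and 130, 127 and 124 CPM in scramble libraries (log2 fold change 0.16, SE 0.0257; adjusted p = 6.19e-06 in edgeR). BCL7A and BCL7B, small accessory subunits, had log2 fold changes of -0.15 (SE 0.0234; adjusted p = 1.83e-06 in edgeR) and -0.12 (SE 0.0306; adjusted p = 0.00203 in edgeR). ACTB, the actin subunit and a cytoskeletal protein, had -0.20 (SE 0.0162; adjusted p = 2.38e-12 in edgeR), and its reads can be shared with near-identical actin genes and processed pseudogenes. ACTL6A, the actin-like partner, had -0.00 (95% interval -0.05 to 0.04), SS18L1 -0.02 (95% interval -0.07 to 0.04) and BCL7C 0.14 (95% interval -0.02 to 0.30), none of them past the threshold in edgeR. BCL7C passed without MEF2C hairpin replicate 3 (0.21, edgeR adjusted p = 0.0480). Of the core genes outside the 10, SMARCE1, an HMG-box subunit with 19.8% of its exonic sequence shared with other genes' exons, had -0.13 (SE 0.0407; adjusted p = 0.0133 in edgeR), lost without MEF2C hairpin replicate 1 or scramble replicate 3 (edgeR adjusted p = 0.0686 and 0.0745). SMARCD3, a muscle paralogue at 3.03 ± 0.201 CPM in hairpin and 2.43 ± 0.343 CPM in scramble libraries (SD, n = 3 each), had 0.32 (edgeR adjusted p = 0.106).

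**Figure D5:**
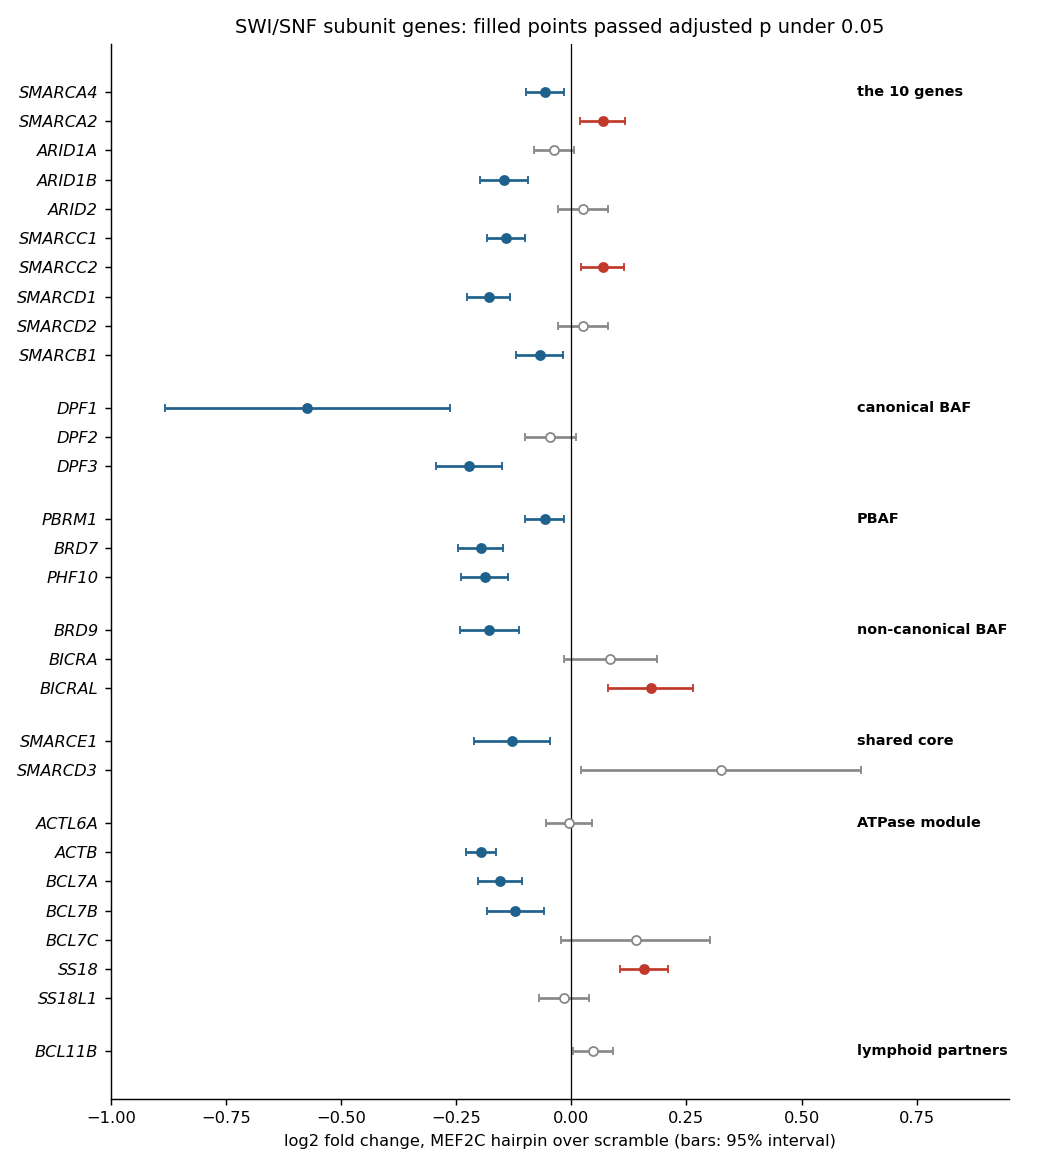
Log2 fold change, MEF2C hairpin over scramble, with its 95% interval for the 10 genes and for 19 other tested SWI/SNF subunit genes, grouped by complex; filled points (blue lower, red higher) had an adjusted p under 0.05 in edgeR. Filled blue points run from -0.57 for DPF1 to -0.06, and the 4 filled red points are SMARCA2, SMARCC2, BICRAL and SS18, between 0.07 and 0.17.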

How the data were processed

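RNA from 6 Karpas-45 libraries was extracted with TRIzol and made into TruSeq libraries, per the labels' protocols. Trim Galore, STAR and HTSeq and the build hg38 are named in the submitters' processing notes; versions, annotation release and strand setting are not given in the sources used here. The deposited values are raw read counts per gene, 1 table per library, made by the authors. Each table ends with 5 summary lines that name no gene, which held between 19.2% and 31.4% of reads and stayed out of library sizes and tests.

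Identifiers were matched without version to a table of symbols, and positions, lengths and 3' UTRs came from GENCODE 29 (GRCh38), which may differ from the authors' release. filterByExpr with a minimum count of 10 left 17677 genes. Libraries were scaled by TMM and fitted by edgeR 4.0.16 under R 4.3.3 (quasi-likelihood, robust, group only). P-values were adjusted by the Benjamini-Hochberg method, in the reported fit across the 17677 tested genes, and calls needed an adjusted p under 0.05. SE is the absolute log2 fold change, MEF2C hairpin over scramble, over the square root of F. The script was tested on simulated data. At a true log2 fold change of 0.1 in size, 6 of 50 changed genes were called, and 4 of 7 in the members' range of level. At 0.2 the counts were 24 of 50 and 7 of 7. Of 17477 unchanged genes 10 were called. Changes of 0.1 or less can thus be missed. The mean chi-square statistic per gene between replicate pairs was 3.31 to 4.46, against 1 for sampling noise. It was scaled by total gene reads without TMM, so differences in composition enter it. Alternatives used DESeq2 1.42.0, limma 3.58.1 (voom), 2 other scalings, 2 other filters, a replicate block, each library left out, and an offset from smooth terms in GC content and exon length (mgcv 1.9.3).

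The 10 genes, the lists and the tests were chosen with earlier results of these data known. All 10 are named, as are the other subunits and, for other remodelers, the 3 smallest adjusted p-values of each of 3 groups.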

Additional observations from a re-analysis of the deposited data

How the results depend on the processing

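The direction of all 10 genes was the same in 13 of 14 alternatives, and with the GC and length offset SMARCD2 turned to -0.0768. ARID1B, SMARCC1 and SMARCD1 kept their call in all 14. Of the 10 genes, 3 were called lower with upper-quartile scaling, with no filter and with a filter of 1 CPM in 3 libraries. With no filter, with the replicate block and with the GC and length offset, 1 was called higher. Leaving out 1 library at a time gave 3 to 6 lower and 0 to 2 higher. The GC and length offset also turned BICRA to -0.0463 and took the ratio differences to 0.0777 for ARID1A over ARID1B, 0.24 for SMARCA2 over SMARCA4, 0.17 for SMARCC2 over SMARCC1 and 0.17 for SMARCD2 over SMARCD1, an alternative chosen after seeing the data. On the same 15903 genes without the offset, also chosen after seeing the data, 2 of the 10 genes were higher and 5 lower. ACTL6A, near 0, turned to 0.00572 with upper-quartile scaling, 0.00679 with the 1 CPM filter and 0.00638 without MEF2C hairpin replicate 1, and it ran from -0.0239 to 0.00638 with 1 library left out. SS18L1 ran from -0.0386 to 0.0102 in the same way, above 0 without scramble replicate 2. The cause of these shifts was not tested. Same-numbered libraries did not deviate together (correlations -0.102, 0.019 and 0.0327), so the numbers were not taken to pair them. With the replicate block 1 of the 10 genes was called higher and 5 lower, and 2308 and 2584 of all tested genes. The libraries were technical replicates of a single hairpin in a single line, and MEF2C itself was at or under the floor, so neither the knockdown nor the variation between cultures could be measured. MEF2C, ACTL6B and BCL11A had too few reads to test.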

Other observations

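Genes of other ATP-dependent remodelers were measured from a list of 29, all tested, of which 10 were lower and 5 higher in the MEF2C hairpin libraries, with a median log2 fold change of -0.05. That is 51.7% called, beside 28.8% of all tested genes and 56.7% of those in the level range of the 10 SWI/SNF genes. Not all of the 29 lay in that range of 112 to 590 CPM. ACTR6, for example, averaged 29.8 CPM in hairpin and 31.8 CPM in scramble libraries, so the last share is not matched to their level. In the ISWI group 4 of 8 fell and 3 rose (87.5%). BAZ2A, a subunit of the nucleolar remodeling complex that silences ribosomal RNA genes, had the largest rise of the list, at 119 ± 1.53 CPM in MEF2C hairpin and 84.3 ± 4.13 CPM in scramble libraries (SD, n = 3 each; log2 fold change 0.51, edgeR adjusted p = 4.79e-16). SMARCA5, the ISWI ATPase, fell to 350 ± 6.01 CPM in MEF2C hairpin, against 391.9 ± 8.49 CPM in scramble libraries (SD, n = 3 each; -0.16, edgeR adjusted p = 1.32e-07), and BPTF, the large subunit of NURF, had -0.12 (edgeR adjusted p = 0.000159).

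In the CHD and NuRD group 4 of 13 fell and 2 rose, 46.2% beside the same 28.8% and 56.7%. The risers were CHD9 at 0.16 (edgeR adjusted p = 9.98e-06) and CHD3, a NuRD ATPase, at 0.16 (edgeR adjusted p = 1.74e-05), and CHD1, which acts with elongating polymerase, had -0.09 (edgeR adjusted p = 0.00455). In the INO80, SRCAP and TIP60 group 2 of 8 fell and 0 rose (25%). RUVBL2, an AAA-type ATPase shared by these complexes, measured 147 ± 1.49 CPM in MEF2C hairpin and 174 ± 7.43 CPM in scramble libraries (SD, n = 3 each; -0.24, edgeR adjusted p = 2.57e-09). YY1, a zinc-finger factor of INO80, had -0.12 (edgeR adjusted p = 7.50e-05), and ACTR6 had -0.09 and did not pass (edgeR adjusted p = 0.131).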
